A study of Homo sapiens with 12 samples.

Results

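The combination of dauricine and osimertinib (DAC+OSI) was set against Control in PC9-OR cells across all genes, using 6 of the 12 RNA sequencing libraries of the series. The members were chosen by their treatment labels alone and are 3 Control and 3 DAC+OSI libraries, numbered 1 to 3 in each group. PC9-OR is named as a derivative of PC9, an established human non-small cell lung cancer line whose growth depends on an activating mutation of the epidermal growth factor receptor (EGFR). The study works with it as an osimertinib-resistant line. Osimertinib is a covalent inhibitor of the EGFR kinase, and dauricine is a bisbenzylisoquinoline alkaloid of moonseed rhizome. The remaining 6 libraries, 3 treated with osimertinib alone (OSI) and 3 with dauricine alone (DAC), are given beside the comparison because the stated purpose of the design was to set the joint treatment against each compound given singly. All 4 groups are the same line. The labels give no dose, exposure time or vehicle, and they do not say whether the libraries of a group came from separate cultures, so p-values speak only of the spread among the libraries sequenced, and that spread may be technical.

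By way of background, ligand-bound EGFR signals through RAS and ERK to a set of early genes that includes AP-1 factors, D cyclins and its own negative feedback genes. Loss of that signal can stop lung cancer cells that depend on it before DNA synthesis. Whether it does so in the resistant line used here was not tested. Cholesterol is made in the endoplasmic reticulum from acetyl-CoA, and the pathway is switched on by the SREBP transcription factors when sterol there is low. Much of the sterol that reaches this compartment comes out of lysosomes, where LDL is taken apart. Lysosomes themselves are renewed by the MiT/TFE transcription factors. Ferroptosis, which the title of the study names, is a form of cell death driven by iron and peroxidised polyunsaturated lipids, and SAT1 is an enzyme of polyamine breakdown that has been linked to it.

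The libraries held 60895871, 43204494 and 42132586 counts in Control and 54147363, 24909151 and 66866253 in DAC+OSI, and the other 6 lay within that range. The limit that 3 counts set for a gene without counts ran from 0.0449 to 0.12 CPM (counts scaled to a library of fixed total) over the libraries, for counting error only. Mitochondrial genes took 10.39% to 18.56% of the counts. Control 2 and DAC+OSI 2 deviated from their group means in a way that ran with the GC content of genes. Spearman's rho between deviation and GC content was 0.56 for Control 2 and 0.57 for DAC+OSI 2. It lay between -0.52 and -0.37 for their fellow libraries and between -0.09 and 0.06 for OSI and DAC libraries; it is taken across genes, and genes are no independent replicates. Results are therefore given from all 12 libraries and from a 10-library fit without these libraries, and for the comparison as a whole after a GC correction. The summed level of 7 epithelial markers was 9742 to 20350 CPM in every library and that of 5 alveolar markers at most 1.84 CPM in any. The 14 markers of immune, endothelial and fibroblast cells summed to 31.55 to 40.42 CPM in Control and to 53.98 to 169.6 CPM in DAC+OSI, the highest sum being that of DAC+OSI 2. COL1A1 made up the largest part, with 9.85, 17.9 and 9.32 CPM in Control and 25.3, 78.3 and 38.1 CPM in DAC+OSI, whereas DCN was at 0 outside DAC+OSI 2 and LUM at most 0.278 CPM. By class, immune markers summed to 13.14 to 18.8 CPM in Control and 14.29, 46.41 and 12.78 CPM in DAC+OSI 1, 2 and 3. Endothelial markers summed to 4.948 to 5.331 and 12.41, 28.41 and 13.75 CPM, fibroblast markers to 11.17 to 22.33 and 27.28, 94.76 and 41.44 CPM. Each class was highest in DAC+OSI 2. Of the list of such markers with 14 tested members, VWF, COL1A1 and CDH5 rose and ALB and CD68 fell, or 5 rose without DAC+OSI 1 and none fell without Control 3 or DAC+OSI 3; their part in the results below was not tested.

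**Figure D1:**
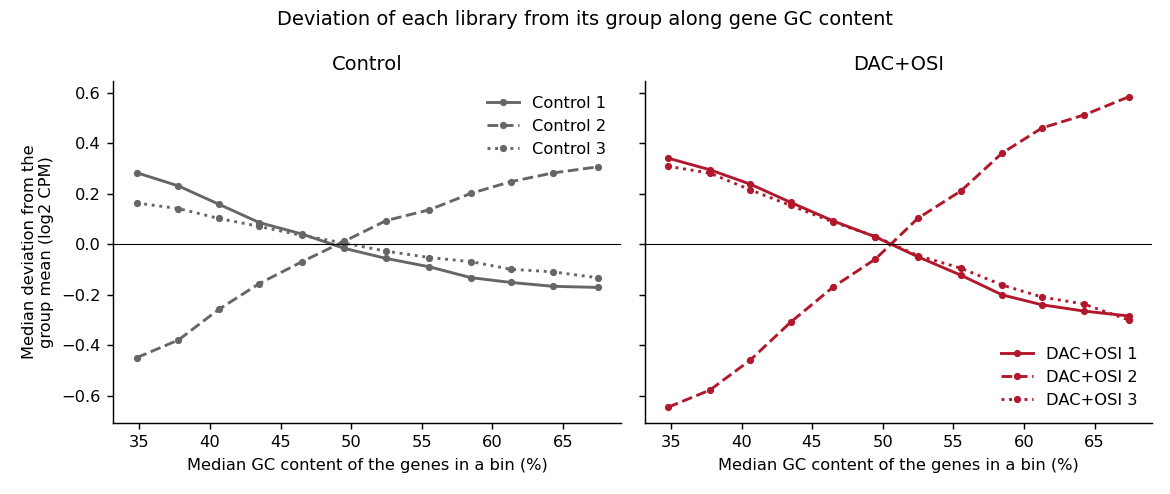
The median deviation of each library from its group mean (log2 CPM) is plotted against the median GC content of the genes in a bin (%), for Control and DAC+OSI, with 1 line per library. Control 2 runs from -0.45 in the bin at 34.79% GC to 0.31 in the bin at 67.47% and DAC+OSI 2 slopes the same way more steeply, while the other libraries slope the opposite way.

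Across the 20820 genes tested, 5860 (28.1%) were called at an adjusted p under 0.05 by the quasi-likelihood test of edgeR. Of these, 3198 (15.4% of the genes tested) were higher in DAC+OSI and 2662 (12.8%) were lower. These shares are the background against which each gene list below should be read, and the median log2 fold change of all genes tested was 0.03. Lists near these shares are not set apart from all genes by their counts. Examples are p53 targets (18.18% rose and 13.64% fell) and endoplasmic reticulum stress genes (13.04% each way). The size of a called change was 0.97 at the median on the log2 scale, and 1806 rises (8.67%) against 1015 falls (4.88%) passed 2-fold, or 619 (2.97%) against 216 (1.04%) at 4-fold. Protein-coding genes were called more often (31.82% of 14733) than long non-coding genes (21.71% of 3634). All DAC+OSI libraries lay above all Control libraries for 3896 genes (18.7%) and below them for 3743 (18%). The 10-library fit called 8778 of 21458 genes (40.9%), 4453 (20.8%) higher and 4325 (20.2%) lower, and 5527 of these calls were among the 5860. A fit of the 6 compared libraries alone called 2958 genes, of which 2954 were among the 5860. Across genes, Spearman's rho between the log2 fold change and GC content was 0.18, 0.09 in the 10-library fit and 0.01 after GC correction. No gene that was called both by the main test and by any of these fits changed its direction.

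**Figure D2:**
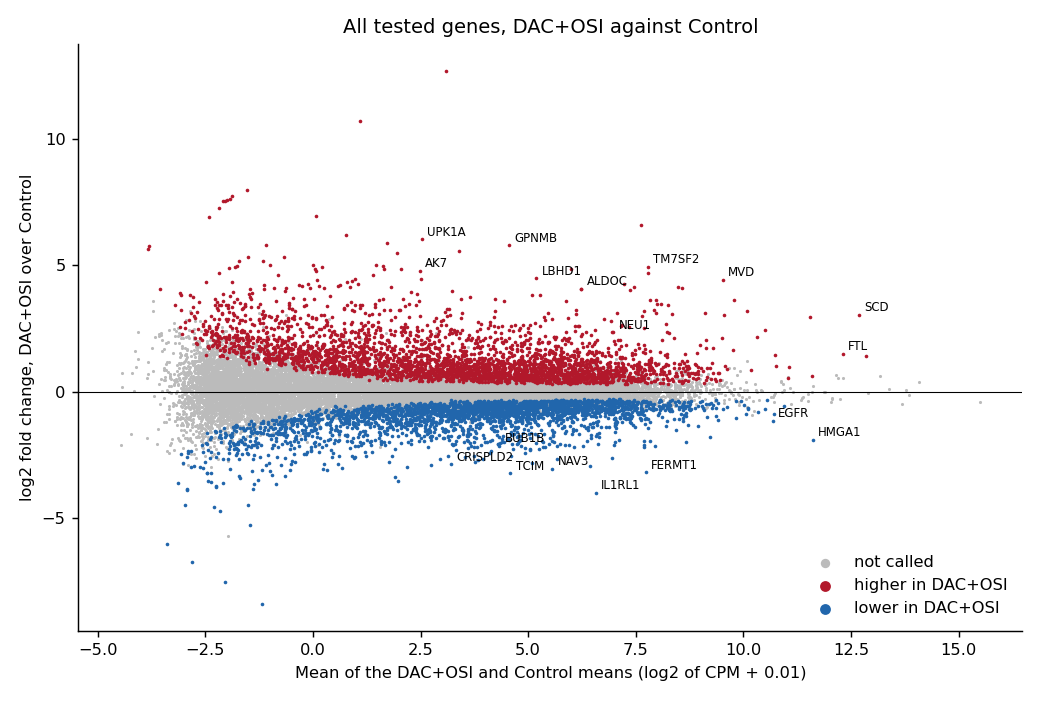
Each point is 1 of the 20820 genes tested, with the mean of the Control and DAC+OSI means (log2 of CPM + 0.01) on the horizontal axis and the log2 fold change of DAC+OSI over Control on the vertical axis; colour separates the 3198 genes called higher and the 2662 called lower from the rest. The labelled sterol genes, GPNMB and UPK1A lie among the larger rises, with unlabelled points of non-coding or low genes above them, and IL1RL1 is the lowest of the labelled falls.

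The 12 largest rises among protein-coding genes of at least 10 CPM included UPK1A, GPNMB, TM7SF2, AK7, LBHD1, MVD, TMEM97, LSS, ACAT2, HMGCS1 and ALDOC, of which TM7SF2, MVD, LSS, ACAT2 and HMGCS1 belong to cholesterol synthesis. GPNMB, a lysosomal membrane glycoprotein and known target of MiT/TFE factors, measured 0.924, 0.592 and 0.974 CPM in Control 1, 2 and 3 and 48.5, 41.6 and 48.1 CPM in DAC+OSI 1, 2 and 3. The DAC+OSI libraries were alike and far above Control (log2 fold change 5.78 ± 0.19, adjusted p = 3.97e-09). UPK1A, a tetraspanin of the urothelial plaque, rose from 0.0486, 0.284 and 0.209 CPM to 5.54, 21 and 7.46 CPM (log2 fold change 6.03 ± 0.62, adjusted p = 1.43e-05), with DAC+OSI 2 highest. AK7, an adenylate kinase of motile cilia, went from 0.454, 0.142 and 0.556 to 11, 8.41 and 12.9 CPM (log2 fold change 4.79 ± 0.38, adjusted p = 1.63e-06). ALDOC, an aldolase of glycolysis, went from 7.1, 8.76 and 9.5 to 107, 195 and 122 CPM (log2 fold change 4.07 ± 0.23, adjusted p = 1.52e-07). LBHD1, whose function is little described, rose by a log2 fold change of 4.48 ± 0.27.

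The 12 largest falls were IL1RL1, TCIM, FERMT1, NAV3, TNC, CRISPLD2, AOX1, CD274, SH2D2A, EFNB2, FAM72B and NRP1. IL1RL1, the receptor of interleukin 33, measured 198, 171 and 169 CPM in Control and 11.2, 9.68 and 12.7 CPM in DAC+OSI (log2 fold change -4.00 ± 0.17, adjusted p = 1.71e-08). FERMT1, a kindlin that activates integrins, fell from 425, 354 and 371 to 47, 34.3 and 44.7 CPM (log2 fold change -3.19 ± 0.15, adjusted p = 3.77e-08). Groups without overlap were a condition for naming these genes, so that their separation is no separate result. For IL1RL1 and FERMT1 the libraries of a group lay close together, while TNC varied more within both groups. CD274, which encodes the immune checkpoint ligand PD-L1, fell from 27.2, 22.8 and 21.9 to 3.5, 2.38 and 4.32 CPM (log2 fold change -2.79 ± 0.19, adjusted p = 5.66e-07). TNC, the matrix protein tenascin C, was at 126, 204 and 133 CPM in Control and at 14.3, 31 and 15.2 CPM in DAC+OSI (log2 fold change -2.95 ± 0.29, adjusted p = 9.77e-06), with the second library highest in both groups. NRP1, a co-receptor of VEGF and semaphorins, and EFNB2, an ephrin ligand, fell by 2.64 ± 0.14 and 2.68 ± 0.22 on the log2 scale. AOX1, the aldehyde oxidase that metabolises many drugs, fell by 2.81 ± 0.13 on that scale.

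Among called genes, the largest gains in reads, which favour long and abundant transcripts, included those of SCD, FTH1, FTL and FASN, and the largest losses were those of HMGA1, EGFR, CCT6A, RPL37 and MTATP6P1. HMGA1, an architectural chromatin protein of proliferating cells, went from 4488, 5975 and 4293 CPM in Control to 1101, 1673 and 1207 CPM in DAC+OSI (log2 fold change -1.89 ± 0.18, adjusted p = 9.44e-06). CCT6A, a subunit of the chaperonin that folds actin and tubulin, went from 2144, 2348 and 2078 to 1301, 984 and 1241 CPM (log2 fold change -0.90 ± 0.12, adjusted p = 1.47e-04). For RPL37, a ribosomal protein, the values were 2070, 2919 and 2136 and 1432, 1920 and 1412 CPM (log2 fold change -0.58 ± 0.16, adjusted p = 0.0182). The groups did not overlap, but the call ended in other fits, with an adjusted p of up to 0.157. MTATP6P1 is a nuclear pseudogene of a mitochondrial gene, and its reads may belong to the mitochondrial copy.

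Cholesterol synthesis rose at nearly every step. Of the 20 enzymes tested, 19 rose and the other, PMVK, was at 12.4, 18.4 and 14 CPM in Control and 14.5, 23.9 and 13.2 CPM in DAC+OSI; the median log2 fold change was 3.21, and 19 also rose in the 10-library fit. At the entry to the pathway ACAT2, which joins acetyl-CoA units, rose from 18.4, 17.5 and 21.4 to 345, 296 and 355 CPM (log2 fold change 4.12 ± 0.15, adjusted p = 6.89e-09). HMGCS1, which makes HMG-CoA, rose from 44.7, 32.8 and 49.3 to 844, 499.9 and 820.4 CPM (log2 fold change 4.09 ± 0.22, adjusted p = 9.29e-08). In both steps DAC+OSI 2 was the lowest library of its group.

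Further along, MVD, the decarboxylase that ends the mevalonate steps, measured 52.3, 85.3 and 59.2 CPM in Control and 697, 2794 and 733 CPM in DAC+OSI (log2 fold change 4.42 ± 0.48, adjusted p = 2.14e-05). Its value in DAC+OSI 2 was far above the other libraries of the group, and without Control 2 and DAC+OSI 2 the log2 fold change was 3.68. SQLE, the squalene epoxidase, went from 38.4, 25.3 and 37.4 to 486, 244 and 526 CPM and LSS, which closes the sterol rings, from 32.9, 44.4 and 37.7 to 481, 1056 and 495 CPM (log2 fold change 4.14 ± 0.28, adjusted p = 5.06e-07 for LSS). TM7SF2, a sterol reductase, went from 13.1, 15.2 and 13.5 to 307, 658 and 307 CPM (log2 fold change 4.93 ± 0.28, adjusted p = 1.64e-07). DHCR7, the reductase that ends one branch of the pathway, rose by 3.18 ± 0.23 on the log2 scale, and the smallest called rise was that of NSDHL at 1.72 ± 0.14. Every one of the 19 enzymes had all DAC+OSI libraries above all Control libraries.

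Of 15 genes of sterol sensing and LDL uptake, 10 rose and 5 were not called (median 1.08); the 10-library fit called 11 higher and 2 lower. INSIG1, which holds SREBP in the endoplasmic reticulum and is itself an SREBP target, went from 18.5, 16.5 and 21.5 to 263, 369 and 294 CPM (log2 fold change 4.03 ± 0.17, adjusted p = 1.90e-08). TMEM97, the sigma-2 receptor that binds the sterol transporter NPC1, went from 15, 13.2 and 16.4 to 311, 213 and 334 CPM (log2 fold change 4.27 ± 0.18, adjusted p = 1.97e-08). The factors themselves moved less: SREBF2, which drives sterol genes, rose by 1.14 ± 0.17 (adjusted p = 2.66e-04) and SREBF1, which drives lipid genes, by 0.86 ± 0.18 (adjusted p = 0.00335), the latter losing its call in other fits (adjusted p up to 0.0612). The escort protein SCAP was not called (log2 fold change 0.36 ± 0.29, adjusted p = 0.394).

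Genes that carry sterol out of lysosomes or cells gave a mixed picture. Among 15, 8 rose and the others were not called (median 0.89), and 10 rose in the 10-library fit. The median was 0.57 in that fit and 0.34 without DAC+OSI 2. With DESeq2, with GC correction and without DAC+OSI 1, 1 member was called lower. NPC2, the soluble protein that lifts cholesterol from the lysosomal lumen, rose from 382, 594 and 414 to 1543, 3244 and 1425 CPM (log2 fold change 2.16 ± 0.29, adjusted p = 1.16e-04), and its membrane partner NPC1 by 0.95 ± 0.12 on the log2 scale (adjusted p = 6.85e-05). LIPA, the lysosomal acid lipase that frees cholesterol from LDL esters, rose by 1.54 ± 0.28 (adjusted p = 0.00132). ABCA1, the exporter that is the classic target of the oxysterol receptors LXR, stood at 53.7, 58.8 and 55.4 CPM in Control and 49.7, 38.3 and 45.4 CPM in DAC+OSI. The DAC+OSI libraries lay below Control without overlap, but the main test did not call it (log2 fold change -0.33 ± 0.12, adjusted p = 0.056).

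Fatty acid synthesis also rose, with 13 of 18 tested members rising and the other 5 not called (median 1.48); the 10-library fit called 16 higher and 1 lower. SCD, the desaturase that makes monounsaturated fatty acids, went from 1487, 1278 and 1532 CPM to 12760, 9657 and 12630 CPM (log2 fold change 3.03 ± 0.14, adjusted p = 3.87e-08). FASN, the fatty acid synthase, measured 553, 849.9 and 633 CPM in Control and 3144, 9448 and 3287 CPM in DAC+OSI (log2 fold change 2.96 ± 0.36, adjusted p = 5.74e-05), and the DAC+OSI 2 value was far above the other libraries. ACLY and ACSS2, which supply acetyl-CoA from citrate and from acetate, rose by 3.04 ± 0.15 and 3.62 ± 0.14 on the log2 scale. ACACA, the carboxylase that commits acetyl-CoA to the pathway, rose by 0.99 ± 0.10 (adjusted p = 1.08e-05). ACSL3 was called higher (log2 fold change 0.94 ± 0.25, adjusted p = 0.0146) although its groups overlapped, and the call ended in other fits (adjusted p up to 0.11). The core TCACNCCA of the sterol response element was found, on either strand, in 2 of 15 cholesterol synthesis promoters, 1 of 11 of sterol sensing and 1 of 18 of fatty acid synthesis in RefSeq (GRCh38.p14, 250 bases before to 50 after the gene start), against 3.926% of all 27305 promoters. These promoters are therefore not printed, and a missing match says only that these letters are not in the window.

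**Figure D3:**
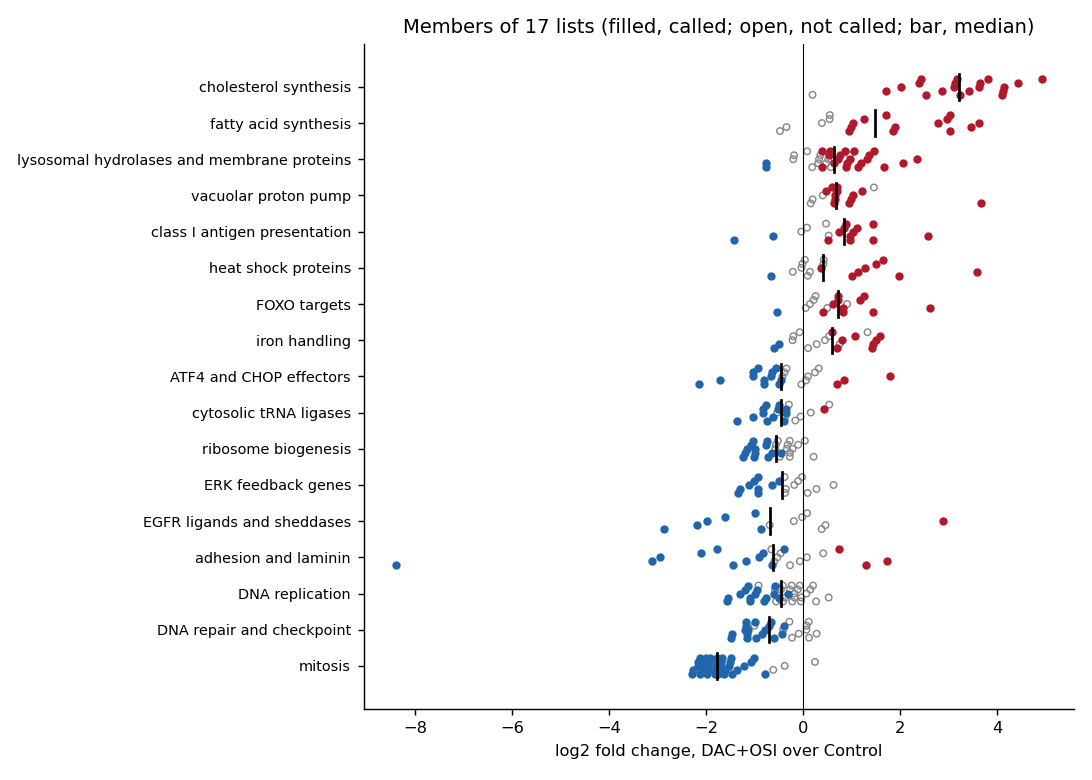
The log2 fold change of DAC+OSI over Control is shown for each tested member of 17 gene lists (filled points called, open points not called, bar at the list's median). Cholesterol synthesis lies to the right with a median of 3.21 and mitosis to the left with a median of -1.77; the point at -8.39 is MMP7, which had no counts in the DAC+OSI libraries, so that its fitted value is no measure of size.

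Lysosomal genes changed by smaller amounts. Of 33 hydrolases and membrane proteins tested, 20 rose, 2 fell and 11 were not called (median 0.65); the counts were 24 and 2 in the 10-library fit and 13 rises in the fit of the 6 libraries alone. NEU1, a sialidase, went from 37.1, 47.5 and 38.9 CPM in Control to 195, 239 and 196 CPM in DAC+OSI (log2 fold change 2.35 ± 0.14, adjusted p = 1.99e-07). CTSF, a cysteine protease, went from 21.9, 23.4 and 22.9 to 86.8, 106 and 90.3 CPM (log2 fold change 2.05 ± 0.13, adjusted p = 3.12e-07). PSAP, the precursor of the saposins that help degrade sphingolipids, went from 832, 983 and 892 to 1813, 3792 and 1852 CPM (log2 fold change 1.46 ± 0.23, adjusted p = 4.74e-04). MCOLN1, the lysosomal calcium channel, rose by 1.66 ± 0.33 on the log2 scale. CTSB, another cysteine protease, fell from 155, 223 and 181 to 95.3, 138 and 95 CPM (log2 fold change -0.77 ± 0.16, adjusted p = 0.00356; up to 0.0513 in other fits), as did SLC36A1, an amino acid exporter of the lysosome (log2 fold change -0.77 ± 0.17, adjusted p = 0.00551).

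The vacuolar proton pump, which acidifies lysosomes, had 12 of 16 tested subunits higher and 4 not called (median 0.68), 15 in the 10-library fit but 4 in the fit of the 6 libraries alone. ATP6AP1, an accessory subunit, measured 218, 296 and 234 and 455, 814 and 480.2 CPM (log2 fold change 1.22 ± 0.20, adjusted p = 5.47e-04), and ATP6V0D2, a subunit known from osteoclasts and macrophages, 0.486, 0.332 and 0.533 and 5.96, 4.09 and 7.06 CPM (log2 fold change 3.66 ± 0.28, adjusted p = 1.41e-06). Of 12 MiT/TFE factors and their regulators, 6 rose (8 in the 10-library fit). The factor genes were not called: TFEB stood at 6.98, 9.26 and 5.96 CPM in Control and 7.97, 16.8 and 8.31 CPM in DAC+OSI (log2 fold change 0.56 ± 0.26, adjusted p = 0.127), and TFE3 and MITF had log2 fold changes of -0.02 ± 0.15 and 0.36 ± 0.13. Those that rose were GPNMB and the nutrient-sensing regulators of these factors, RRAGD (log2 fold change 2.19 ± 0.31, adjusted p = 1.79e-04), FNIP2 (log2 fold change 2.24 ± 0.15, adjusted p = 5.23e-07), RRAGC, FLCN and FNIP1, of which FNIP1 lost its call in another fit (adjusted p = 0.0905). Autophagy genes split: 12 of 30 rose, 2 fell (ATG16L1 and ATG3, with adjusted p up to 0.172 and 0.127 in other fits) and 16 were not called, against 15 and 3 in the 10-library fit and 6 rises in the fit of the 6 libraries alone. SQSTM1, the cargo receptor p62, went from 291, 314 and 296 to 658, 629.6 and 614 CPM (log2 fold change 1.08 ± 0.10, adjusted p = 6.78e-06).

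Promoters of the lysosomal, proton pump and MiT/TFE list members were read, whether or not the genes rose. The reason is that MiT/TFE factors bind a known element, TCACGTG, which holds the general E-box CACGTG. In RefSeq promoters (GRCh38.p14, 250 bases before to 50 after the gene start, both strands) the element was present in 8 of 21 lysosomal genes with a promoter in the table (38.1%), 3 of 10 proton pump genes (30%) and 4 of 11 genes of the factors and regulators (36.36%), against 1043 of all 27305 promoters (3.82%). In the sterol, fatty acid and cell cycle lists the element ranged from 0% (fatty acid synthesis) to 13.33% of promoters (cholesterol synthesis), with 9.091% for DNA replication. The stretches around it in NEU1 (chr6:31862894-31862993), CTSF (chr11:66568675-66568774) and RRAGC (chr1:38859830-38859929), all on the minus strand, are shown 5′ to 3′ along the gene and end before its start, with the element in capitals (in CTSF and RRAGC it is the reverse complement, CACGTGA).
NEU1: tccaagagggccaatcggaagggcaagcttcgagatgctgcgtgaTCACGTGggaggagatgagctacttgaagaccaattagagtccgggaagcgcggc
CTSF: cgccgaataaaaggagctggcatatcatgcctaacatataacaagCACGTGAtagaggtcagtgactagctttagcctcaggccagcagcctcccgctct
RRAGC: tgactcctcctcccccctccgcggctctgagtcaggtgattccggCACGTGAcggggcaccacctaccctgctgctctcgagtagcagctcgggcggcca
The element begins 127, 123 and 112 bases before the gene start in NEU1, CTSF and RRAGC. All of these printed genes rose, so they do not stand for every match. Among the factors and regulators, matches were in FNIP1, RRAGC, RRAGB and PPARGC1A, of which RRAGB was not called and PPARGC1A was not tested. GPNMB, FNIP2 and FLCN, which rose, had none. A match is a description of the letters and does not show that a factor was bound in these cells.

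The receptor, its ligands and its feedback genes held more falls than rises. EGFR itself went from 2400, 2314 and 2069 CPM in Control to 1050, 923 and 1110 CPM in DAC+OSI (log2 fold change -1.14 ± 0.13, adjusted p = 3.42e-05); of 11 family members and adaptors tested, 4 fell (EGFR, ERRFI1, CBL and SHC1) and ERBB2 rose (log2 fold change 0.71 ± 0.18, adjusted p = 0.0113). In the 10-library fit 4 rose and 5 fell, and 3 rose without DAC+OSI 2. The calls of SHC1 and ERBB2 ended in other fits (adjusted p up to 0.0617 and 0.108). Among 13 ligands and sheddases, 6 fell and 1 rose (median -0.69; 7 and 2 in the 10-library fit). AREG, amphiregulin, fell from 23.8, 24.4 and 18.1 to 5.36, 3.36 and 5.6 CPM (log2 fold change -2.19 ± 0.21, adjusted p = 9.19e-06). EREG, epiregulin, fell from 26, 14.5 and 22.9 to 5.34, 5.35 and 5.42 CPM (log2 fold change -1.98 ± 0.20, adjusted p = 1.26e-05). HBEGF went from 46.5, 46.3 and 41.2 to 14.3, 12.8 and 16.5 CPM (log2 fold change -1.61 ± 0.13, adjusted p = 1.58e-06). The groups were apart for these ligands. NRG2, the member that rose, was near the floor in Control (0.13, 0.0947 and 0 CPM) and at 0.408, 1.12 and 0.37 CPM in DAC+OSI (log2 fold change 2.88 ± 0.85, adjusted p = 0.0227), and its call ended in other fits (adjusted p up to 0.0697). TGFA fell by 0.87 ± 0.13 on the log2 scale and NRG1 by 1.0 ± 0.34, NRG1 losing its call in other fits (adjusted p up to 0.137).

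Of 18 ERK feedback genes, 9 fell and the other 9 were not called (median -0.44; 11 fell and 1 rose in the 10-library fit). DUSP6, the phosphatase that switches ERK off, went from 223, 207 and 214 to 94.7, 137 and 109 CPM (log2 fold change -0.92 ± 0.14, adjusted p = 3.52e-04). SPRY4, an inhibitor of RAS activation, went from 99.9, 121 and 101 to 37.5, 47.2 and 42.8 CPM (log2 fold change -1.33 ± 0.13, adjusted p = 7.81e-06). DUSP4, a phosphatase of the same family, was not called (log2 fold change 0.09 ± 0.11, adjusted p = 0.571). CCND1, cyclin D1, was lower by 0.49 ± 0.13 on the log2 scale (adjusted p = 0.0112), a call that ended in other fits (adjusted p up to 0.0862). Of 18 AP-1 and immediate early factors, 8 fell and 1 rose, or 13 and 1 in the 10-library fit. FOSL1, the AP-1 subunit FRA1, fell from 209, 256 and 174 to 27.5, 48.9 and 29.2 CPM (log2 fold change -2.60 ± 0.23, adjusted p = 4.58e-06). MYC went from 187, 222 and 158 to 87.1, 101 and 91.6 CPM (log2 fold change -1.02 ± 0.14, adjusted p = 1.89e-04). EGR1 fell by 1.53 ± 0.31 on the log2 scale, while FOS and JUN were not called (log2 fold change -0.22 ± 0.32, adjusted p = 0.649 for FOS and log2 fold change -0.23 ± 0.20, adjusted p = 0.423 for JUN). JUND, a further AP-1 subunit, rose from 25.2, 27.3 and 21.2 to 58.6, 95 and 57.9 CPM (log2 fold change 1.52 ± 0.18, adjusted p = 5.03e-05).

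Receptors that can bypass EGFR in resistant cells moved both ways, 4 of 14 up and 5 down. AXL fell from 191, 275 and 184 to 50.2, 76.1 and 47 CPM (log2 fold change -1.91 ± 0.20, adjusted p = 1.72e-05). MET went from 216, 221 and 221 to 120.1, 107 and 119 CPM (log2 fold change -0.93 ± 0.10, adjusted p = 2.11e-05). In contrast, FGFR3 rose from 12.4, 17.4 and 15.5 to 35.4, 81.5 and 31.4 CPM (log2 fold change 1.71 ± 0.29, adjusted p = 7.90e-04), and INSR, the insulin receptor, by 1.18 ± 0.13 on the log2 scale (adjusted p = 2.95e-05). Adhesion genes held more falls than rises: 11 of 22 integrins, laminins and matrix proteases fell, 3 rose and 8 were not called (median -0.62; 15 and 3 in the 10-library fit). The rises numbered 1 in the fit of the 6 libraries alone and without Control 2, Control 3, DAC+OSI 1 or DAC+OSI 3. ITGA6, the laminin-binding integrin of epithelia, went from 385, 273 and 341 to 78, 72.4 and 81.9 CPM (log2 fold change -2.11 ± 0.14, adjusted p = 3.68e-07). ITGAV, another integrin chain, was called higher with overlapping groups (log2 fold change 0.75 ± 0.26, adjusted p = 0.0452; up to 0.194 in other fits). Targets of YAP and TEAD split, with 3 of 17 higher and 5 lower: NT5E, the enzyme CD73 that makes adenosine, fell from 724, 572 and 664 to 172, 144 and 172 CPM (log2 fold change -2.01 ± 0.12, adjusted p = 2.65e-07). CCN1 and CCN2, the best known of these targets, were not called (log2 fold changes 0.29 ± 0.22 and 0.29 ± 0.16).

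Genes of cell division fell together. Of 39 mitotic genes, 36 fell and HMMR, NUSAP1 and PRC1 were not called (median -1.77), and 37 fell in the 10-library fit. CDK1, the kinase that drives entry into mitosis, measured 136, 54.1 and 111 CPM in Control and 32.4, 11.4 and 26.3 CPM in DAC+OSI (log2 fold change -2.09 ± 0.36, adjusted p = 8.22e-04). PLK1, the mitotic polo-like kinase, measured 80.5, 107 and 92.9 and 18, 28.2 and 18.6 CPM (log2 fold change -2.12 ± 0.18, adjusted p = 2.66e-06), and UBE2C, the ubiquitin-conjugating enzyme of the anaphase-promoting complex, 59.3, 50.7 and 54.9 and 12.8, 10.9 and 9.92 CPM (log2 fold change -2.29 ± 0.14, adjusted p = 2.38e-07). BUB1B, a kinase-like protein of the spindle checkpoint, fell from 33.7, 30.6 and 34.1 to 8.64, 6.91 and 6.88 CPM (log2 fold change -2.13 ± 0.14, adjusted p = 3.13e-07). MKI67, the proliferation marker, fell from 180.5, 114 and 174 to 49.4, 43.3 and 43.1 CPM (log2 fold change -1.79 ± 0.18, adjusted p = 1.10e-05). In each of these genes the 3 DAC+OSI libraries lay below the 3 Control libraries, and of the 36 falls that of CENPE alone came with overlapping groups (up to an adjusted p of 0.0612 in other fits). In bulk RNA, fewer dividing cells and less of these RNAs per cell cannot be told apart.

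DNA replication genes had a smaller median change: 15 of 37 fell and 22 were not called (median -0.46). The count depended on the libraries, with 27 falls in the 10-library fit, 26 without DAC+OSI 2, and 25 with the replicate number as a block and a GC correction. It was 11 in the fit of the 6 libraries alone and 13 without Control 1, Control 3 or DAC+OSI 3. Of all genes tested, 12.8% fell in the main test and 20.2% in the 10-library fit. Those that fell include MCM10 and CDC45, which open the replication fork (log2 fold change -1.57 ± 0.17, adjusted p = 2.24e-05 for MCM10 and log2 fold change -1.13 ± 0.17, adjusted p = 3.44e-04 for CDC45), and TK1 and RRM2, which supply deoxynucleotides (log2 fold changes -1.30 ± 0.14 and -0.95 ± 0.12). The helicase subunit MCM2 was not called, with 35.7, 54.3 and 37.9 CPM in Control and 42.1, 101 and 41.9 CPM in DAC+OSI, and neither was PCNA, the sliding clamp (log2 fold change -0.22 ± 0.22, adjusted p = 0.487). Of 27 DNA repair and checkpoint genes, 17 fell and 10 were not called (median -0.70; 19 fell and 2 rose in the 10-library fit, and 10 fell in the fit of the 6 libraries alone). FANCD2, a Fanconi anaemia protein of crosslink repair, went from 28.1, 22.8 and 26.7 to 13.9, 9.24 and 11.3 CPM (log2 fold change -1.16 ± 0.15, adjusted p = 1.14e-04). BRCA1 fell by 1.0 ± 0.21 on the log2 scale, and BRCA2 was not called (log2 fold change -1.0 ± 0.36, adjusted p = 0.0534).

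Regulators of the G1/S step did not move together, with 3 of 18 higher (16.67%) and 4 lower (22.22%), beside 15.4% and 12.8% of all genes tested. The fit of the 6 libraries with the replicate block and that without DAC+OSI 1 gave 7 falls. The fit of the 6 libraries alone gave 0 rises and 2 falls. CCNA2, cyclin A2, fell from 33.6, 27.9 and 36.7 to 10.7, 8.76 and 9.48 CPM (log2 fold change -1.76 ± 0.14, adjusted p = 2.03e-06). E2F7, a repressor of the E2F family, went from 6.71, 6.27 and 5.17 to 2.66, 1.46 and 2.4 CPM (log2 fold change -1.44 ± 0.21, adjusted p = 2.28e-04). E2F1, the activator that drives replication genes, was higher, at 10.9, 12.9 and 9.78 CPM in Control and 17.3, 32 and 15.4 CPM in DAC+OSI (log2 fold change 0.93 ± 0.23, adjusted p = 0.00841), as was RBL2, the pocket protein p130 of resting cells, by 0.82 ± 0.17 on the log2 scale. CCND2, cyclin D2, rose from 0.81, 0.332 and 0.719 to 1.19, 4.67 and 1.73 CPM (log2 fold change 1.94 ± 0.52, adjusted p = 0.0134), a call that the 6-library fit with the replicate block did not make (adjusted p = 0.0522). The calls of E2F1, RBL2, CCND2 and of the repressor E2F8 ended in other fits, with adjusted p up to 0.086, 0.0521, 0.0643 and 0.0673. Among the 7 CDK inhibitors, CDKN1A, CDKN1C and CDKN2D were called higher. CDKN1A, which encodes p21, measured 51.5, 61.2 and 48.5 and 66.5, 73.3 and 77 CPM (log2 fold change 0.43 ± 0.12, adjusted p = 0.0152), and CDKN1B, which encodes p27, 39.2, 31.3 and 39.4 and 38.8, 23.4 and 38.6 CPM, without a call. All 3 calls ended in other fits (adjusted p up to 0.15, 0.0501 and 0.103 in the order named).

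Because the mitotic genes moved together, their promoters were searched on both strands for TTTGAA, the usual form of the cell cycle homology region through which the DREAM complex and MYBL2 with FOXM1 act in turn. It was present in 25 of the 33 mitotic genes with a RefSeq promoter in the table (75.76%, GRCh38.p14, 250 bases before to 50 after the gene start), against 1 of 33 DNA replication genes (3.03%), 1 of 23 DNA repair genes (4.348%) and 4212 of all 27305 promoters (15.43%). The stretches before the start of PLK1 (chr16:23678815-23678888), BUB1B (chr15:40161001-40161068) and CDK1 (chr10:60778125-60778224), all on the plus strand, are shown 5′ to 3′ with the element in capitals.
PLK1: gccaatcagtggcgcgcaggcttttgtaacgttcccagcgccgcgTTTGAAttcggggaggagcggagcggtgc
BUB1B: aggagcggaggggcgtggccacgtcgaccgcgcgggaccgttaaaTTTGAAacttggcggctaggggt
CDK1: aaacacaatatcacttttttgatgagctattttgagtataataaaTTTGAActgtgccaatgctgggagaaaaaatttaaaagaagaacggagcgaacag
It begins 29, 23 and 161 bases before the gene start in PLK1, BUB1B and CDK1. HMMR, NUSAP1 and PRC1, which were not called, carried the element too. CCNB1, AURKB, BUB1, CDC25C, KIF20A, KIF2C, CENPE and PTTG1 fell and had no match. The letters are shared by genes of a known class and do not show binding in these cells.

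Genes of amino acid supply and protein synthesis held many small falls. Of 23 effectors of ATF4, the factor of the amino acid and integrated stress response, 12 fell, 3 rose and 8 were not called (median -0.45), with 15 and 4 in the 10-library fit and 7 falls in the fit of the 6 libraries alone. ASNS, asparagine synthetase, fell from 90.1, 192 and 95.7 to 14.8, 54 and 17.3 CPM (log2 fold change -2.15 ± 0.46, adjusted p = 0.00356). CTH, which makes cysteine from cystathionine, fell from 32.2, 27 and 29.5 to 11.6, 4.47 and 10.5 CPM (log2 fold change -1.72 ± 0.27, adjusted p = 4.06e-04). MTHFD2, a mitochondrial enzyme of one-carbon metabolism, went from 172, 179 and 173 to 87.1, 81 and 86.1 CPM (log2 fold change -1.04 ± 0.10, adjusted p = 7.37e-06). ATF4 itself and DDIT3, which encodes CHOP, were not called (log2 fold change -0.34 ± 0.18, adjusted p = 0.19 for ATF4 and log2 fold change 0.10 ± 0.21, adjusted p = 0.762 for DDIT3). NUPR1, a stress-induced chromatin protein, rose from 2.19, 1.97 and 1.85 to 7.86, 7.3 and 5.86 CPM (log2 fold change 1.80 ± 0.17, adjusted p = 6.39e-06). Cytosolic tRNA ligases followed the same direction, 12 of 20 falling and AARS1 rising (adjusted p up to 0.108 in other fits; median -0.45; 14 and 2 in the 10-library fit, 5 falls in the fit of the 6 libraries alone). FARSB, a chain of the phenylalanine ligase, fell from 88.8, 71.1 and 85.1 to 40.3, 20.04 and 34.6 CPM (log2 fold change -1.36 ± 0.21, adjusted p = 3.14e-04). Among 12 amino acid transporters SLC7A1 and SLC1A4 fell, against 4 falls with the replicate block and 6 in the 10-library fit or without DAC+OSI 2. SLC7A5, the large neutral amino acid transporter LAT1, was lower without a call (log2 fold change -0.59 ± 0.23, adjusted p = 0.0668), although the replicate block gave one (adjusted p = 0.00636 with 6 libraries and 0.0104 with 12).

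Ribosome biogenesis fell for 13 of 26 genes, with 13 not called (median -0.57; 22 fell in the 10-library fit). DKC1, the pseudouridine synthase of nucleolar RNPs, went from 191, 179 and 177 to 77.6, 69.2 and 84 CPM (log2 fold change -1.25 ± 0.12, adjusted p = 8.01e-06). NOLC1, a nucleolar chaperone, went from 257, 198 and 217 to 115, 93 and 110.4 CPM (log2 fold change -1.08 ± 0.13, adjusted p = 6.48e-05). Of 34 ribosomal proteins, 11 fell (20 in the 10-library fit and 20 without DAC+OSI 2, 5 in the fit of the 6 libraries alone), with RPS29 at 258, 315 and 238 and 156, 142 and 128 CPM (log2 fold change -0.93 ± 0.17, adjusted p = 0.00125). Ribosomal protein reads can be split with processed pseudogenes, so single members are uncertain. Proteasome subunits gave 5 falls of 27 in the main test, 9 with the replicate block in 12 libraries, 12 with it in the 6 libraries, 15 in the 10-library fit, 11 without DAC+OSI 2, 3 without Control 1 or without DAC+OSI 3 and 0 in the fit of the 6 libraries alone. PSMD2, a base subunit of the regulatory particle, went from 695, 873 and 698 to 424, 574 and 442 CPM (log2 fold change -0.65 ± 0.14, adjusted p = 0.0037), a call that ended in other fits (adjusted p up to 0.0517).

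Polyamine and ferroptosis genes moved both ways, and iron genes held more rises than falls. SAT1, the spermidine/spermine acetyltransferase named in the study's title, measured 79.2, 61.8 and 78.5 CPM in Control and 197, 106 and 191 CPM in DAC+OSI (log2 fold change 1.17 ± 0.21, adjusted p = 0.00102); all DAC+OSI libraries were above all Control libraries. SMOX, the oxidase of the other route of spermine breakdown, fell from 108, 164 and 115 to 37.3, 68.2 and 43.4 CPM (log2 fold change -1.38 ± 0.21, adjusted p = 3.52e-04). ODC1, which starts polyamine synthesis, was not called (log2 fold change -0.05 ± 0.16, adjusted p = 0.855). AMD1, which supplies the aminopropyl donor, fell by 0.97 ± 0.28 on the log2 scale (adjusted p = 0.0193, up to 0.101 in other fits). Over 18 polyamine genes, 3 rose (16.67%) and 4 fell (22.22%), or 4 and 6 in the 10-library fit. Of all genes tested 15.4% rose and 12.8% fell, so these counts do not set the list apart. Without Control 1, 2 fell, and in the fit of the 6 libraries alone 1 rose and 1 fell.

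In ferroptosis defence, 5 of 18 genes rose (27.78%) and 2 fell (11.11%), beside 15.4% and 12.8% of all genes tested. The counts were 5 and 5 in the 10-library fit. Rises numbered 2 without Control 1, 3 without Control 3 and 1 in the fit of the 6 libraries alone. GPX4, the peroxidase that reduces lipid peroxides, was at 291, 394 and 325 CPM in Control and 464, 1058 and 443 CPM in DAC+OSI (log2 fold change 0.96 ± 0.27, adjusted p = 0.0173). The groups were apart, but DAC+OSI 2 was the highest library and Control 2 the highest of Control, and the call ended in other fits (adjusted p up to 0.122). SLC7A11, the cystine importer, was at 455, 280 and 411 CPM and 316, 152 and 304 CPM in overlapping groups and was not called (log2 fold change -0.57 ± 0.24, adjusted p = 0.0936). With the replicate number as a block it was called lower (adjusted p = 0.00671 with 6 libraries and 0.0488 with 12). GSS, which makes glutathione, fell from 123, 142 and 120.2 to 66.1, 66.8 and 58.8 CPM (log2 fold change -1.0 ± 0.11, adjusted p = 2.63e-05). AIFM2, the ubiquinone reductase FSP1, was not called (log2 fold change -0.24 ± 0.16, adjusted p = 0.317). Among 15 genes that activate or oxidise polyunsaturated lipids, 7 rose and 1 fell (2 fell without DAC+OSI 2). ACSL4, the ligase that loads arachidonic acid, was at 152, 80.5 and 135 CPM and 303, 133 and 307 CPM, with overlap between the groups (log2 fold change 1.02 ± 0.28, adjusted p = 0.0166; up to 0.113 in other fits). ACSL1, a general long-chain ligase, rose from 78.6, 70.9 and 88.2 to 572, 398 and 549.6 CPM (log2 fold change 2.68 ± 0.15, adjusted p = 1.71e-07). FADS2, a desaturase of polyunsaturated synthesis, went from 39.5, 51.8 and 45.5 to 368, 717 and 417 CPM (log2 fold change 3.46 ± 0.23, adjusted p = 4.25e-07).

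Iron genes rose for 8 of 19 and fell for 2 (median 0.59; 12 and 2 in the 10-library fit, 5 rises in the fit of the 6 libraries alone). TFRC, the transferrin receptor, went from 149.8, 117 and 136 to 452, 309 and 438 CPM (log2 fold change 1.58 ± 0.15, adjusted p = 9.44e-06). FTL, the light chain of the iron store ferritin, went from 2512, 3017 and 2419 to 8132, 7257 and 7120 CPM (log2 fold change 1.5 ± 0.12, adjusted p = 1.54e-06). FTH1, the heavy chain, was at 3105, 5521 and 3397 CPM in Control and 7669, 19140 and 5204 CPM in DAC+OSI, so that DAC+OSI 3 lay below Control 2 and DAC+OSI 2 far above all others (log2 fold change 1.41 ± 0.38, adjusted p = 0.0134; up to 0.0999 in other fits). NCOA4, which delivers ferritin to lysosomes, rose by 0.69 ± 0.18 on the log2 scale (adjusted p up to 0.101 in other fits). HMOX1, the heme oxygenase, had a log2 fold change of 0.59 ± 0.13 (adjusted p = 0.00404, up to 0.0627 in other fits). Targets of NRF2, the factor of the antioxidant response, split into 8 rises and 3 falls of 24, with 11 and 5 in the 10-library fit and 4 rises in the fit of the 6 libraries alone. SRXN1, sulfiredoxin, rose by 2.22 ± 0.40 on the log2 scale. TXN, thioredoxin, fell by 0.78 ± 0.15 and NQO1 was not called (log2 fold change 0.30 ± 0.11, adjusted p = 0.0615).

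Glycolysis and hypoxia genes gave 7 rises and 3 falls of 29, or 4 rises without Control 1 and 3 in the fit of the 6 libraries alone. The falls numbered 7 without DAC+OSI 2, 6 in the 10-library fit and 1 in the fit of the 6 libraries alone or without Control 2, DAC+OSI 1 or DAC+OSI 3. The calls of HK2 and SLC2A1 below ended in other fits (adjusted p up to 0.108 and 0.0819). LDHA, which turns pyruvate into lactate, fell from 794, 709 and 784 to 460.3, 289 and 407 CPM (log2 fold change -0.98 ± 0.15, adjusted p = 4.12e-04). HK2, a hexokinase, fell by 0.87 ± 0.25 on the log2 scale. SLC2A1, the glucose transporter GLUT1, rose from 146, 196 and 151 to 237, 530.1 and 251 CPM (log2 fold change 1.05 ± 0.25, adjusted p = 0.00746). GAPDH and PGK1 were not called (log2 fold changes 0.01 ± 0.26 and 0.04 ± 0.12). None of the 13 mitochondrially encoded subunits was called by edgeR (median -0.26, with 3 at an unadjusted p under 0.05); DESeq2 called 2 lower, and the 10-library fit 9. Without DAC+OSI 2 there were 7 such calls, without Control 2 there were 2 and without DAC+OSI 1 there was 1. The median was -0.46 in the 10-library fit and without DAC+OSI 2, and -0.14 after GC correction. MT-CO1, a subunit of cytochrome oxidase, measured 50870, 53720 and 52710 CPM in Control and 32690, 43950 and 41590 CPM in DAC+OSI without overlap (log2 fold change -0.41 ± 0.16, adjusted p = 0.0679), and MT-ND3, a subunit of complex I, 2132, 825 and 1698 and 1058, 441 and 929 CPM (log2 fold change -0.94 ± 0.35, adjusted p = 0.0646). With the replicate block in the 6 libraries both were called lower (adjusted p = 0.0394 and 7.60e-04). Of 32 nuclear subunits of the respiratory chain, 3 fell (5 fell and 4 rose in the 10-library fit, and 3 rose without DAC+OSI 2), among them NDUFV2 and ATP5MC1, the latter with an adjusted p of up to 0.105 in other fits. NDUFS1 was not called by the main test (log2 fold change -0.37 ± 0.14, adjusted p = 0.0623) and was called lower with the block (adjusted p = 0.0314).

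Genes of class I antigen presentation rose for 11 of 17 members and fell for TAP2 and PSMB10 (PSMB10 with an adjusted p of up to 0.0537 in other fits; median 0.84; 13 and 2 in the 10-library fit). The median was 0.64 in that fit and 0.55 without DAC+OSI 2. NLRC5, the transactivator of these genes, went from 17.1, 24.6 and 19.7 to 96, 170.5 and 101 CPM (log2 fold change 2.58 ± 0.23, adjusted p = 4.35e-06). B2M, the shared light chain, went from 249, 191 and 243 to 478, 364 and 481 CPM (log2 fold change 0.96 ± 0.14, adjusted p = 2.37e-04). HLA-B, one of the heavy chains, went from 18.9, 15.6 and 16.5 to 32.7, 70.4 and 35.3 CPM (log2 fold change 1.44 ± 0.24, adjusted p = 6.47e-04). HLA genes are similar in sequence, and reads can be split among them. TAP2, a chain of the peptide transporter, fell from 33.8, 24.3 and 31.8 to 11.7, 9 and 12.7 CPM (log2 fold change -1.42 ± 0.17, adjusted p = 4.36e-05) while its partner TAP1 rose by 0.89 ± 0.13 on the log2 scale. Interferon-stimulated genes rose for 14 of 33 and fell for ISG20, against 11 and 3 in the 10-library fit, 3 falls without DAC+OSI 2, 9 rises without Control 2 and 6 in the fit of the 6 libraries alone. Many were low in these cells: IFI6 was at 0.843, 0.923 and 0.811 CPM in Control and 2.24, 5.01 and 2.09 CPM in DAC+OSI (log2 fold change 1.81 ± 0.39, adjusted p = 0.00415), and MX1 was not called (log2 fold change -0.23 ± 0.29).

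Among 22 targets of NF-kB, 9 rose and 4 fell (9 and 6 in the 10-library fit, 5 rises in the fit of the 6 libraries alone). ICAM1, the adhesion molecule of inflamed epithelium, rose from 15, 17.5 and 16.6 to 29.7, 40.03 and 30.2 CPM (log2 fold change 1.02 ± 0.13, adjusted p = 1.09e-04) and SOD2, the mitochondrial superoxide dismutase, by 0.99 ± 0.14 on the log2 scale, whereas PTGS2, the inducible cyclooxygenase, fell from 4.08, 4.97 and 3.94 to 1.1, 0.778 and 1.44 CPM (log2 fold change -1.92 ± 0.22, adjusted p = 3.34e-05). C3, the central complement component, rose from 23.2, 27.9 and 26.7 to 85.6, 201 and 93.1 CPM (log2 fold change 2.29 ± 0.27, adjusted p = 4.33e-05), with CFB, C1S and C1R also higher and CD55, which protects cells from complement, lower by 0.64 ± 0.11 on the log2 scale; these are the 5 calls among 13 complement and acute phase genes (2 falls without DAC+OSI 2), and that of C1R ended in another fit (adjusted p = 0.0695).

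Several cytosolic chaperones rose. HSPB8, which works with BAG3 in the clearance of misfolded proteins, went from 9.95, 8.71 and 8.41 to 120.4, 81.5 and 123 CPM (log2 fold change 3.58 ± 0.18, adjusted p = 6.29e-08). HSPB1, HSP27, went from 365, 497 and 399 to 948, 2035 and 939 CPM (log2 fold change 1.64 ± 0.25, adjusted p = 3.80e-04). HSPA1A, the inducible HSP70, was at 127, 180.3 and 161 and 339, 642 and 339 CPM (log2 fold change 1.49 ± 0.22, adjusted p = 3.01e-04), a gene whose reads are shared with its near copy HSPA1B. Together, 8 of 17 heat shock genes rose and HSPD1, of the mitochondrial chaperonin, fell (log2 fold change -0.65 ± 0.21, adjusted p = 0.0346; up to 0.127 in other fits), with 10 and 1 in the 10-library fit. The endoplasmic reticulum chaperones did not follow: 3 of 23 rose and 3 fell (7 and 6 in the 10-library fit, 7 rises without DAC+OSI 2 and none either way in the fit of the 6 libraries alone), and HSPA5, the chaperone BiP, stood at 786, 635 and 786 CPM in Control and 647, 751 and 704 CPM in DAC+OSI (log2 fold change -0.07 ± 0.12, adjusted p = 0.706).

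FOXO targets, which resting or insulin-deprived cells express, rose for 10 of 17 and fell for KLF9 (adjusted p up to 0.158 in other fits; median 0.72; 12 and 1 in the 10-library fit, 5 rises in the fit of the 6 libraries alone). PIK3IP1, an inhibitor of PI3 kinase, went from 5.79, 5.73 and 6.33 to 34.6, 38.1 and 36.2 CPM (log2 fold change 2.61 ± 0.16, adjusted p = 2.33e-07). CCNG2, an atypical cyclin of resting cells, rose by 1.27 ± 0.31 on the log2 scale (adjusted p up to 0.0747 in other fits). Of 22 p53 targets, 4 rose and 3 fell (8 and 3 in the 10-library fit, 7 rises without DAC+OSI 2 and 7 with the replicate block in the 6 libraries). TP53INP1, a p53-induced nuclear protein, rose from 8.96, 4.88 and 10.6 to 58.6, 36.2 and 58.4 CPM (log2 fold change 2.65 ± 0.28, adjusted p = 1.99e-05). MDM2, the ligase that p53 induces, was not called (log2 fold change 0.04 ± 0.17, adjusted p = 0.893). In the BCL2 family, which sets the threshold of apoptosis, 4 of 16 rose and 3 fell (7 and 4 in the 10-library fit). BCL2 rose from 1.69, 1.09 and 1.34 to 5.36, 4.67 and 6.04 CPM (log2 fold change 1.96 ± 0.20, adjusted p = 1.52e-05), and the killers BBC3, HRK and BAD rose by 1.0 ± 0.17, 1.45 ± 0.20 and 0.45 ± 0.14 on the log2 scale, of which BAD lost its call in other fits (adjusted p up to 0.606). The protectors MCL1 and BCL2L1 fell by 0.58 ± 0.13 and 0.56 ± 0.14, calls that ended in other fits (adjusted p up to 0.0565 and 0.0723). BCL2L11, the killer BIM that EGFR inhibitors are known to raise, was at 17.4, 13.5 and 17.6 and 22.1, 16.7 and 21.5 CPM without a call (log2 fold change 0.32 ± 0.15, adjusted p = 0.124).

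Lists of cell state were mixed. Of 22 mesenchymal genes, 5 rose and 4 fell (5 and 9 in the 10-library fit, 3 rises without Control 3 and 2 in the fit of the 6 libraries alone, 9 falls without DAC+OSI 2). COL6A1, a chain of collagen VI, rose from 12.3, 21.9 and 13.7 to 40.4, 100.3 and 41.7 CPM (log2 fold change 1.93 ± 0.32, adjusted p = 6.56e-04). VIM, vimentin, was not called (log2 fold change -0.61 ± 0.36, adjusted p = 0.236). Of 21 epithelial genes, 4 rose and 2 fell, with 7 rises without DAC+OSI 1 or DAC+OSI 3, 7 with the replicate block in the 6 libraries, 8 and 3 in the 10-library fit and 2 rises in the fit of the 6 libraries alone. KRT7, a simple keratin, rose from 1315, 1645 and 1295 to 2656, 3261 and 2547 CPM (log2 fold change 0.99 ± 0.13, adjusted p = 1.31e-04). CDH1, E-cadherin, was not called (log2 fold change 0.14 ± 0.12, adjusted p = 0.404). Squamous genes gave 6 rises and 3 falls of 23 (6 and 7 in the 10-library fit, 7 falls without DAC+OSI 2 and 1 without Control 2, DAC+OSI 1 or DAC+OSI 3), with SPRR3 at 1.93, 2.2 and 1.76 and 13.5, 15.2 and 12.8 CPM (log2 fold change 2.81 ± 0.19, adjusted p = 4.87e-07) and TP63, the squamous master factor, lower by 1.06 ± 0.16 on the log2 scale. TGF-beta targets split into 5 rises and 4 falls of 17, with 3 rises in the fit of the 6 libraries alone or without Control 3, and 3 of 11 Wnt targets rose, with 2 falls without DAC+OSI 2 and 1 without Control 1. In the alveolar list of 12 tested members AGER and LAMP3 fell and FOXA2 was called higher (adjusted p up to 0.0803 in other fits), with 4 falls without DAC+OSI 2.

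Drug-handling genes changed one by one. Of 10 aldehyde dehydrogenases, 4 rose and 2 fell, with 4 falls in DESeq2, with the replicate block and without DAC+OSI 2, and 1 without Control 2, Control 3 or DAC+OSI 3. ALDH3B2 went from 36.4, 52.1 and 45.7 to 227, 582 and 265 CPM (log2 fold change 3.0 ± 0.30, adjusted p = 1.01e-05). ALDH3A1, a corneal and airway form, went from 104, 145 and 114 to 32.2, 73.5 and 32.2 CPM (log2 fold change -1.40 ± 0.27, adjusted p = 0.00183). CYP1B1, a target of the aryl hydrocarbon receptor, rose from 27.4, 18.3 and 28.2 to 89, 86.9 and 94.9 CPM (log2 fold change 1.87 ± 0.16, adjusted p = 2.66e-06), among 5 rises and 1 fall of 17 xenobiotic genes (2 falls without DAC+OSI 2 and none without Control 2, DAC+OSI 1 or DAC+OSI 3), whereas CYP1A1, the standard marker of that receptor, was not called (log2 fold change -0.62 ± 0.45, adjusted p = 0.334). Of 10 efflux genes 3 rose and 1 fell (5 and 3 in the 10-library fit, 3 falls without DAC+OSI 2). ABCG2, the breast cancer resistance protein, rose from 13.1, 11.3 and 13.7 to 31.1, 17.3 and 29.7 CPM (log2 fold change 1.04 ± 0.20, adjusted p = 0.00163). ABCB1, P-glycoprotein, was near the floor at 0.356, 0.663 and 0.371 CPM in Control and 0.213, 0.876 and 0.178 CPM in DAC+OSI. Among 15 histone genes with polyadenylated transcripts, H2BC4, H2AC6, H2BC5 and H2BC21 rose and H2AZ1, H2AX, MACROH2A2 and H2AZ2 fell; the calls of H2BC21, MACROH2A2 and H2AZ2 ended in other fits (adjusted p up to 0.0823, 0.0748 and 0.308).

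**Figure D4:**
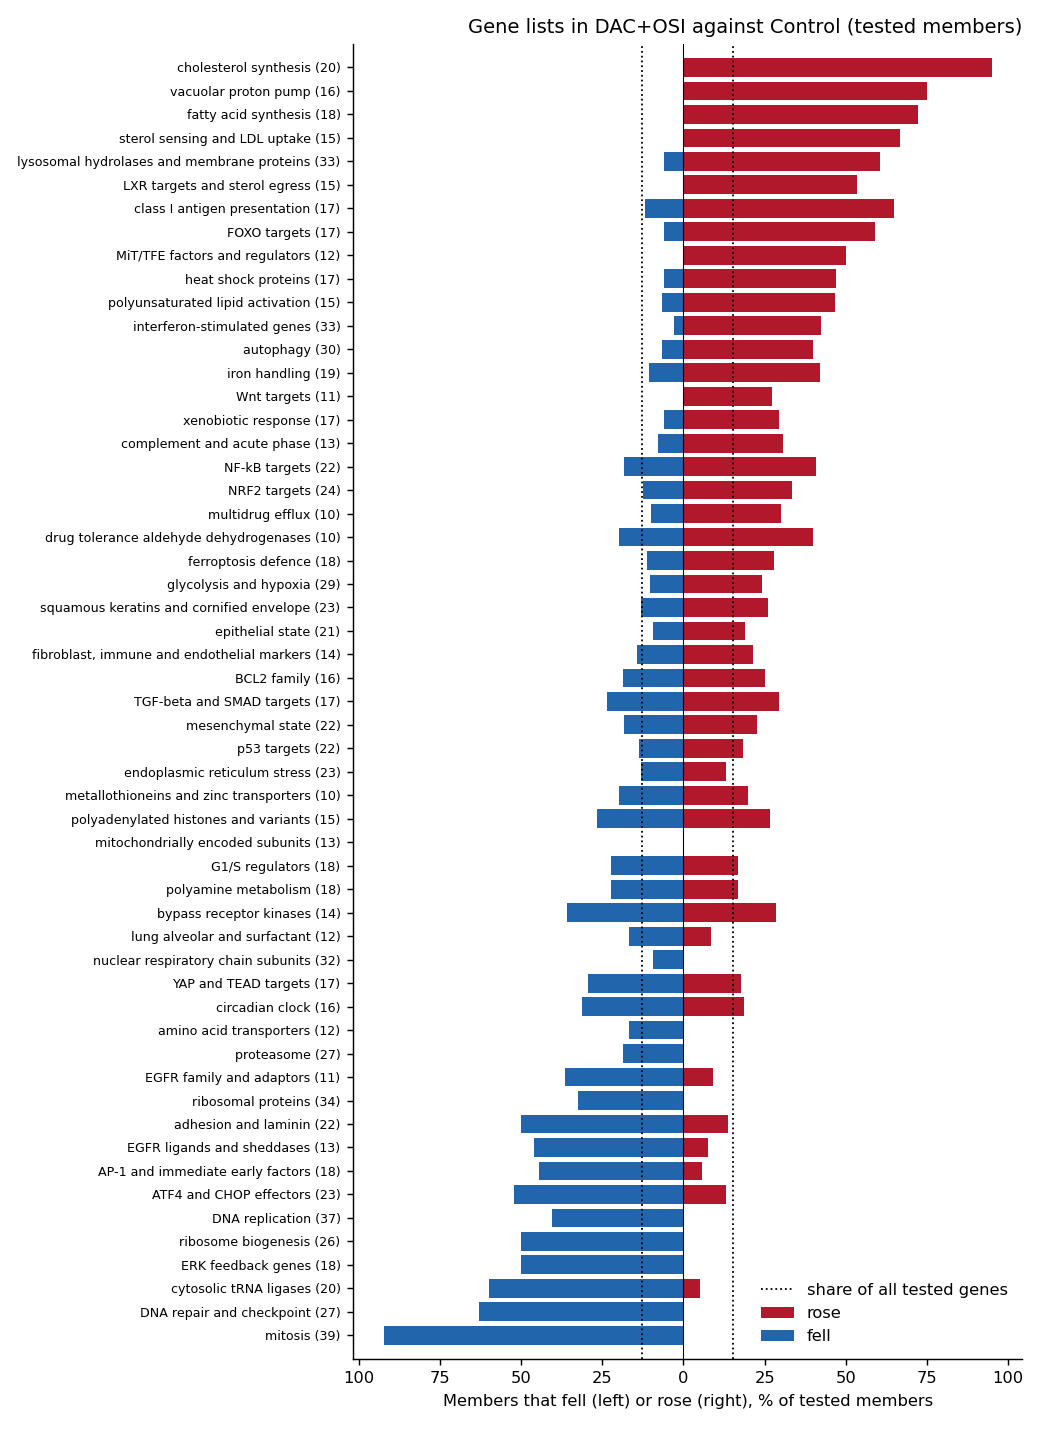
For each list with at least 10 tested members, bars give the share of members (%) that fell, to the left, and rose, to the right, in DAC+OSI against Control; dotted lines mark the background of 12.8% and 15.4% of all genes tested. Mitosis, with 36 of 39 lower, and cholesterol synthesis, with 19 of 20 higher, are farthest from the background.

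Against each compound alone, the combination differed from OSI in 3533 genes (17%; 1875 or 9.01% higher and 1658 or 7.96% lower) and from DAC in 2211 (10.6%; 1269 or 6.1% higher and 942 or 4.52% lower), in the same fit. The 10-library fit called 8730 and 5092. The count against OSI was 5836 without DAC+OSI 2, 2315 without OSI 1 and 2209 without OSI 2, and the count against DAC was 1073, 1022 and 1216 without DAC 1, DAC 2 and DAC 3. These comparisons share the DAC+OSI libraries with that against Control, so their values are given side by side. For sterol genes the combination stood far above OSI and nearer to DAC: of the 20 cholesterol synthesis genes 19 were higher than in OSI (median 3.26) and 7 higher than in DAC (median 0.43). HMGCS1 was at 46.4, 47.7 and 45.8 CPM in OSI and 711, 669.8 and 775 CPM in DAC, beside 844, 499.9 and 820.4 CPM in DAC+OSI, and the difference from DAC was 0.01 ± 0.19 (adjusted p = 0.987). SCD was at 1655, 1756 and 1888 CPM in OSI and 9574, 8510 and 9301 CPM in DAC, a difference of DAC+OSI from DAC of 0.36 ± 0.13 (adjusted p = 0.11). TMEM97 was at 145, 137 and 158 CPM in DAC, and DAC+OSI was higher by 0.96 ± 0.16 (adjusted p = 0.0024) on the log2 scale. TM7SF2 exceeded DAC by 1.40 ± 0.24 (adjusted p = 0.00309) and OSI by 3.63 ± 0.27 (adjusted p = 1.32e-06). A miss of the threshold does not show equal levels.

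For the feedback and adhesion genes the median log2 difference of DAC+OSI was smaller from OSI (0.19 and 0.11) than from DAC (-0.35 and -0.50). For EGFR ligands and sheddases it was -0.21 from OSI and -0.20 from DAC, with 1 higher and 1 lower than in OSI and 4 lower than in DAC. For the EGFR family and adaptors it was 0.01 and -0.08, with 3 lower than in DAC. FERMT1 was at 48.7, 56 and 50.2 CPM in OSI and 243, 243 and 212 CPM in DAC; DAC+OSI differed from OSI by -0.29 ± 0.14 (adjusted p = 0.173) and from DAC by -2.47 ± 0.14 (adjusted p = 1.6e-06). IL1RL1 was at 13.7, 13.6 and 10.2 CPM in OSI and 62.4, 66.8 and 56 CPM in DAC, with differences of -0.15 ± 0.15 (adjusted p = 0.548) from OSI and -2.46 ± 0.16 (adjusted p = 2.54e-06) from DAC. FOSL1 was at 63.9, 58.7 and 55.2 CPM in OSI and 91.3, 102 and 69.7 CPM in DAC, with differences of -0.76 ± 0.22 (adjusted p = 0.034) and -1.32 ± 0.22 (adjusted p = 0.00264). Of the 18 ERK feedback genes, 3 were higher and 1 lower than in OSI, and 7 were lower than in DAC. Of the 22 adhesion genes, 3 were higher and 3 lower than in OSI, and 9 were lower than in DAC; ITGA6 was at 69.2, 69.2 and 63.5 CPM in OSI and 235, 253 and 219.8 CPM in DAC, and DAC+OSI was lower than DAC by 1.61 ± 0.13 (adjusted p = 1.55e-05).

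Mitotic genes were below both single treatments, 37 of 39 lower than in OSI (median -2.33) and 33 lower than in DAC (median -1.14). BUB1B was at 44.9, 51.4 and 46.2 CPM in OSI, 18.5, 19.5 and 16.7 CPM in DAC and 8.64, 6.91 and 6.88 CPM in DAC+OSI, a difference of -2.66 ± 0.14 (adjusted p = 9.56e-08) from OSI and -1.28 ± 0.13 (adjusted p = 8.65e-05) from DAC. CDK1 was at 139.9, 123 and 122 CPM in OSI and 60.1, 77.4 and 59.7 CPM in DAC, with differences of -2.45 ± 0.36 (adjusted p = 4.83e-04) and -1.48 ± 0.35 (adjusted p = 0.0176). No DAC+OSI library reached the lowest library of another group for these genes. All 37 replication genes were lower than in OSI (median -1.41) and 7 lower than in DAC (median -0.26); E2F1 was at 67.9, 65.9 and 74.9 CPM in OSI and 14.4, 12.7 and 13.1 CPM in DAC, so that DAC+OSI differed from OSI by -1.70 ± 0.23 (adjusted p = 2.37e-04) and from DAC by 0.67 ± 0.23 (adjusted p = 0.0789).

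GPNMB was above both, with 12.1, 13.1 and 12.1 CPM in OSI and 4.6, 3.75 and 4.11 CPM in DAC, by 1.89 ± 0.16 (adjusted p = 3.80e-06) over OSI and 3.47 ± 0.17 (adjusted p = 7.60e-07) over DAC. Of the 33 lysosomal genes 6 were higher and 1 lower than in OSI, and 12 were higher than in DAC. NEU1 was at 52.5, 55.6 and 51.6 CPM in OSI and 86.8, 90.1 and 103 CPM in DAC, with DAC+OSI higher by 1.98 ± 0.14 (adjusted p = 8.21e-07) and 1.17 ± 0.13 (adjusted p = 1.94e-04). Class I antigen genes were higher than DAC for 9 of 17 and lower for 1. Against OSI, 2 were higher and 2 lower (median 0.07), beside 9.01% higher and 7.96% lower of all genes tested. NLRC5 was at 33, 44.6 and 43 CPM in OSI and 34.3, 29.9 and 36.3 CPM in DAC, and DAC+OSI differed by 1.6 ± 0.22 (adjusted p = 2.85e-04) and 1.87 ± 0.22 (adjusted p = 2.76e-04). HSPB8 was at 20.3, 21.9 and 22.1 CPM in OSI and 43.9, 41.7 and 53.1 CPM in DAC, with differences of 2.34 ± 0.17 (adjusted p = 1.24e-06) and 1.23 ± 0.16 (adjusted p = 5.04e-04). Of the 17 heat shock genes, only 1 was higher than in OSI (median -0.10), while 6 were higher and 1 lower than in DAC (median 0.14). SAT1 was at 92.5, 75.9 and 78.5 CPM in OSI and 128, 133 and 153 CPM in DAC, and the combination differed from OSI by 1.0 ± 0.21 (adjusted p = 0.00491) and from DAC by 0.26 ± 0.20 (adjusted p = 0.451). GPX4 was at 585, 543 and 578 CPM in OSI and 396, 366 and 412 CPM in DAC, with differences of 0.20 ± 0.27 (adjusted p = 0.665) and 0.74 ± 0.27 (adjusted p = 0.0974). ATF4 effectors, lower than Control, were higher than OSI for 8 of 23 and lower for 1, and 3 were higher than DAC.

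**Figure D5:**
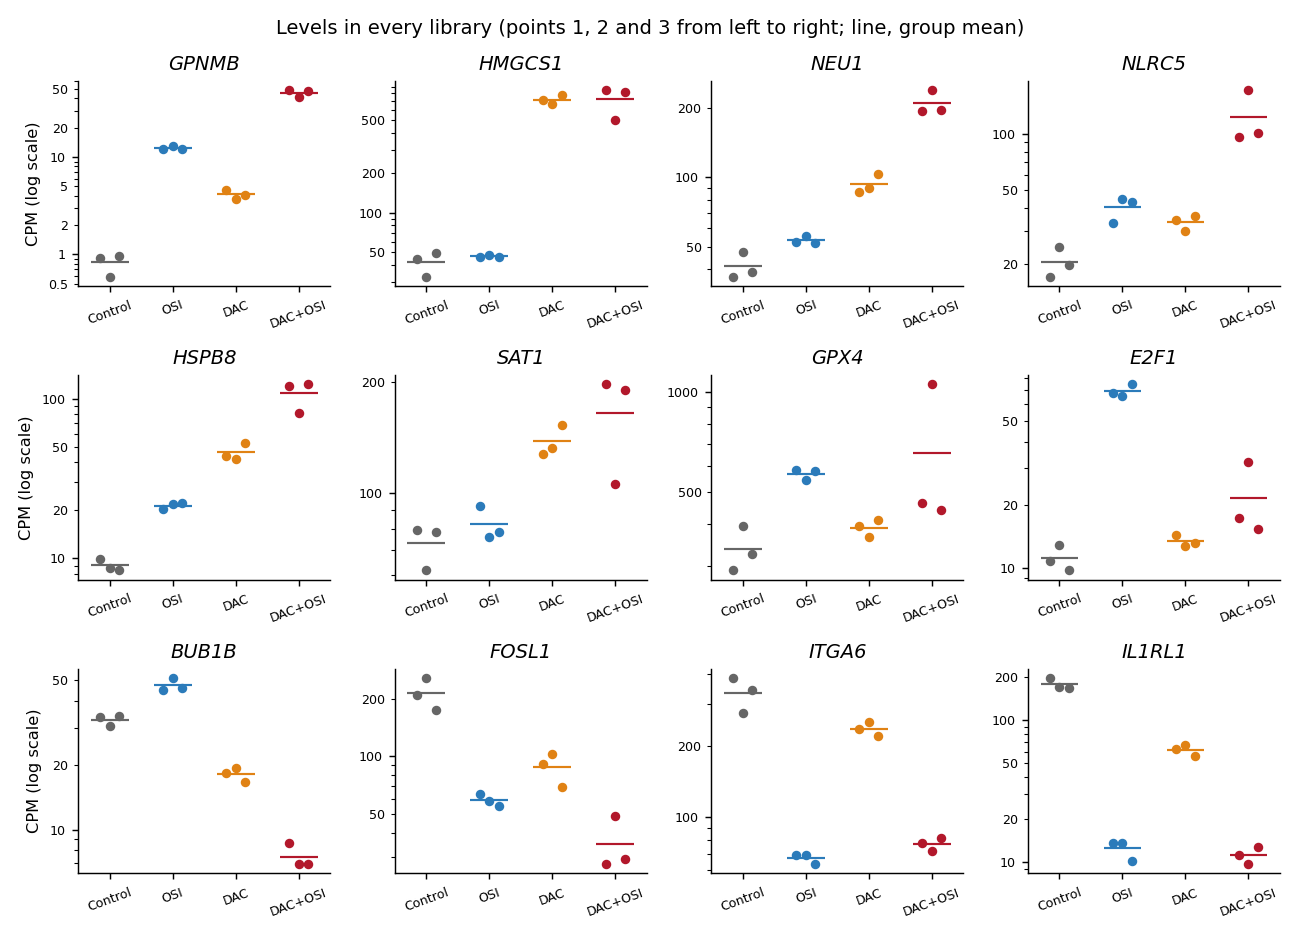
CPM of 12 genes on log axes in every library of the 4 groups, with points 1, 2 and 3 of a group from left to right and a line at the group mean. HMGCS1 is high in DAC and DAC+OSI, ITGA6 and IL1RL1 are low in OSI and DAC+OSI, and BUB1B is lowest in DAC+OSI, where its libraries lie below those of the other groups.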

How the data were processed

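Messenger RNA of 12 PC9-OR libraries, 3 in each of 4 treatment groups, was enriched with oligo(dT) beads, fragmented, primed with random hexamers and amplified by PCR, per the labels' protocols. The authors deposited raw whole-number read counts for 39266 Ensembl genes. Per the submitters' processing notes the tools were CASAVA, HISAT2 and featureCounts, without versions. The build, annotation and strand setting of this step were not given in the sources used here. Reads of antisense and overlapping genes therefore cannot be told apart. Libraries held 24909151 to 66866253 counts, and no molecular identifiers were used.

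Low genes were removed with filterByExpr of edgeR 4.0.16 (20820 left), libraries were scaled by TMM, and a quasi-likelihood model with 4 group means was fitted to all 12 libraries in R 4.3.3. Two-sided p-values were adjusted over all genes tested (Benjamini-Hochberg), with 0.05 as the threshold of a call. The SE is the size of a log2 fold change divided by the square root of F, and levels are CPM on the TMM scale. The biological coefficient of variation was 20.89%. DESeq2 1.42.0 and limma 3.58.1 (voom) served as alternatives, among 17 in all. The same replicate number marks DAC+OSI and Control libraries that deviate together (r of 0.285, 0.432 and 0.2 for numbers 1, 2 and 3, each over the 0.1 set as the bar), although libraries 1 and 3 also correlate across numbers (0.282 and 0.168), so only number 2 stands apart. A replicate block was among the alternatives, and its values are printed where they change a call. For OSI and DAC the numbers did not pair with DAC+OSI.

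Gene symbols were matched by identifier in a gene name table (39178). Gene types and GC content were from GENCODE 29 (37919, with 7 identifiers in neither) and promoters from RefSeq. The members, the 57 gene lists and the alternatives were chosen with earlier results of these data known. Genes were named by rule: the 12 largest rises and falls (adjusted p under 0.05, at least 10 CPM in the higher group, no overlap, protein-coding), the 5 largest gains and losses in CPM among called genes, up to 4 members of each list with the smallest adjusted p, and genes of interest. List members named besides these were chosen after their values were seen, and some genes the rule names are not reported here.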

Additional observations from a re-analysis of the deposited data

How the results depend on the processing

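No value of a named gene called by the main test or an alternative turned its direction under any of the 17 alternatives. Of the 241 named genes called against Control, 210 kept their call when only the 6 compared libraries were fitted. Under the other settings that leave out no single library 238 to 241 kept it, and 234 to 239 did when 1 library was left out. Of the 5860 calls against Control, a fit of only the groups compared left 2958 (1582 higher and 1376 lower). The falls against Control numbered 4048 with the replicate block and GC correction together and 4325 in the 10-library fit. Leaving out 1 library gave 4506 to 7706 calls, 2319 to 3754 higher and 2161 to 3952 lower, the highest total without DAC+OSI 2. The replicate block gave 6333 calls in 12 libraries and 6674 in the 6, and changed no call of a named gene other than those given above. Of the replicate numbers, only number 2 stood apart as a pair of DAC+OSI and Control libraries. Against OSI the 3533 calls (1875 higher, 1658 lower) became 1800 (938 and 862) with only the groups compared and 1238 (667 and 571) with the replicate block added, although the numbers paired neither OSI nor DAC with DAC+OSI (same-number r of at most 0.0786 and 0.0126). They were 5861 (3000 and 2861) with the block and GC correction, 5570 (2881 and 2689) with GC correction and 8730 (4488 and 4242) in the 10-library fit. Leaving out 1 library gave 2209 to 5836 (1106 to 2828 and 1103 to 3008). Against DAC the 2211 calls (1269 and 942) became 3394 (1969 and 1425) with DESeq2. They were 797 (437 and 360) with only the groups compared and 381 (212 and 169) with the block added. They were 3879 (1993 and 1886) with the block and GC correction, 3508 with GC correction (1649 of them lower) and 5092 (2699 and 2393) in the 10-library fit, and without a filter 2069 were higher. Leaving out 1 library gave 1022 to 2834 (541 to 1774 and 481 to 1236). A fit of the compared groups alone has fewer libraries to estimate the spread from. The main fit shares 1 estimate of the spread among all groups, which were not equally noisy. The chi-square per gene was 118.8 and 78.86 for pairs of Control libraries with Control 2. It was 264.2 and 267.1 for pairs of DAC+OSI libraries with DAC+OSI 2. The remaining pairs of these groups had 9.807 and 18.5, and pairs within OSI and DAC had 9.409 to 28.2. The main p-values therefore rest in part on quieter groups outside the comparison. The 10-library fit leaves out libraries chosen because they deviate, which by itself narrows the spread; beyond that, the cause was not tested. The floors of 0.0449 to 0.12 CPM limit what can be said of genes without counts in a group.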

Other observations

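The genes in these paragraphs were chosen after their values were seen. GAS6-AS1, an antisense RNA of the GAS6 locus, measured 3.65, 4.19 and 4.45 CPM in Control, 14.5, 15.7 and 16.8 CPM in OSI, 126, 116 and 118 CPM in DAC and 356, 417 and 395 CPM in DAC+OSI. Against Control the log2 fold change was 6.57 ± 0.15 (adjusted p = 5.40e-11), and DAC+OSI was above DAC by 1.70 ± 0.12 (adjusted p = 4.44e-06). GAS6 itself, the ligand of the receptor AXL, went from 28.1, 44.7 and 31.6 to 75, 201 and 82.4 CPM (log2 fold change 1.78 ± 0.31, adjusted p = 0.00101). Without a stated strand, its reads and those of its antisense partner cannot be told apart. TDRD10, a tudor domain protein, had no counts in the Control libraries and 2.61, 6.03 and 4.19 CPM in DAC+OSI. In the opposite direction MMP7, a matrix protease with 0.454, 1.61 and 0.51 CPM in Control, had no counts in any DAC+OSI library, where the floor is 0.0449 to 0.12 CPM.

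Clock genes, zinc genes and alkaline phosphatases were also measured. BHLHE40, a repressor of the clock, rose from 100.5, 98.7 and 97.2 to 302, 312 and 349 CPM (log2 fold change 1.70 ± 0.10, adjusted p = 2.15e-07). NR1D1, the nuclear receptor REV-ERB alpha, fell from 26.2, 43.1 and 27.2 to 7.86, 18.6 and 9.52 CPM (log2 fold change -1.44 ± 0.30, adjusted p = 0.00295). Of 16 clock genes 3 rose and 5 fell, or 3 fell in the fit of the 6 libraries alone. SLC30A2, a zinc transporter of vesicles, rose from 0.713, 0.71 and 0.58 to 8.75, 12.3 and 8.85 CPM (log2 fold change 3.88 ± 0.25, adjusted p = 3.67e-07). MT2A, a metallothionein, fell from 465, 453 and 420.1 to 281, 256 and 294 CPM (log2 fold change -0.69 ± 0.12, adjusted p = 0.00109). Of 10 metallothioneins and zinc transporters tested 2 rose and 2 fell, or 4 fell with DESeq2 and with the replicate block. ALPP, placental alkaline phosphatase, was at 9.56, 7.77 and 8.69 CPM in Control, 253, 223 and 267 CPM in OSI, 5.89, 4.14 and 5.37 CPM in DAC and 34.9, 34.6 and 32.1 CPM in DAC+OSI. The combination was above Control (log2 fold change 1.96 ± 0.15, adjusted p = 1.17e-06) and differed from OSI by -2.87 ± 0.15 (adjusted p = 9.56e-08) and from DAC by 2.72 ± 0.15 (adjusted p = 1.48e-06). Reads of ALPP and its near copy ALPG can be shared.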
